A study of Mus musculus with 33 samples.

Results

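The genes described are C1qa, C1qb, C1qc and Cfb, 4 of 9672 genes with values in the series. They were taken by their symbols in the platform annotation, which gives each of them 1 probe. They were chosen by measured values, since earlier results of these arrays showed less C1q RNA with time in culture and more Cfb RNA with CpG ODN. Those differences are therefore given as descriptions, with no test, and for these 4 genes only the control ODN was tested against medium.

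The arrays hold RNA of spleen cell suspensions from female BALB/c mice aged 2 months, cultured at 37 C for 2, 4 or 8 h. One set of cultures received 1 uM of CpG ODN, an equimolar mix of the oligodeoxynucleotides 1555 and 1466. Further cultures received 1 uM of control ODN, an equimolar mix of 1612 and 1471, or were kept in medium alone. Each group has 4 arrays at 2 h and at 4 h and 3 arrays at 8 h, 33 in all, from what the series describes as independent experiments. By their titles, 4 arrays have a lower mAdb number than all others. They are CpG ODN replicate 1 and control ODN replicates 1 and 2 of 2 h, and medium replicate 1 of 4 h, with none of 8 h. What this number stands for is not given in the sources used here. Whether each experiment used its own mice is not given in the sources used here.

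Every value is a log2 ratio of spleen cells (Cy5) over Universal Mouse Reference RNA (Cy3), a commercial pooled RNA that was on every array. The log base is not stated, and base 2 was read from the range of values. A ratio ranks 1 gene across groups and does not rank different genes by abundance. Markers of B cells (11 genes) had a median of 2.63 and those of T cells (10 genes) of 2.36, and 21 macrophage and monocyte markers one of 0.23, with 14 of them above 0. The medians were 3.37 for neutrophil (6 genes), 1.83 for dendritic cell (4 genes) and 1.13 for NK cell markers (5 genes). These medians give no shares of the cell types. The arrays had values for 7908 to 11129 of 16720 probes.

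C1qa, C1qb and C1qc encode the A, B and C chains of C1q, the recognition molecule that starts the classical complement pathway when it binds antibody in immune complexes. Most complement proteins of plasma come from the liver, whereas C1q is made mainly by macrophages and dendritic cells, including those of the spleen. Cfb encodes factor B, the protease that joins C3b to form the C3 convertase of the alternative pathway. Factor B is an acute-phase protein, inducible by interferons and inflammatory cytokines in macrophages and other cells.

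The 3 C1q genes are neighbours on mouse chromosome 4, in the order C1qb, C1qc, C1qa, with 0 other genes between them in the RefSeq gene table. Cfb lies on chromosome 17, in the class III region of the MHC. The RefSeq promoter table of build GRCm38.p6 held 2 of the 4 genes, C1qb and C1qc. Their 250 bases before the transcription start are shown, since the table had no entry for C1qa or Cfb. Of the C1q pairs, C1qb and C1qc also had the ratios that went together most closely across arrays. C1qb is read from chr4:136886201-136886450 and C1qc from chr4:136892915-136893164, both on the minus strand.
C1qb: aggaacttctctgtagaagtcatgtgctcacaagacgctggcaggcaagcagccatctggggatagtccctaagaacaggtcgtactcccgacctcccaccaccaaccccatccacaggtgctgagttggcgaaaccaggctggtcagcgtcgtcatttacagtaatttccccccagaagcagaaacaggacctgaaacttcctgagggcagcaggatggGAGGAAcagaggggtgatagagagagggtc
C1qc: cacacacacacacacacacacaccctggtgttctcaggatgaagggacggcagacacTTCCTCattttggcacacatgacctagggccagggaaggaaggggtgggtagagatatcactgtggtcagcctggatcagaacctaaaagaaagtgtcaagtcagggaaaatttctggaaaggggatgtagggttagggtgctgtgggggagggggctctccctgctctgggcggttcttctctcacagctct
The capitals mark GAGGAA on either strand, a core bound by PU.1, a transcription factor of macrophages and B cells. It lies 30 to 25 bases before the start of C1qb and, on the opposite strand, 193 to 188 bases before the start of C1qc. The same letters occur in 23.3% of the 32851 promoter windows of this length in the table. An NF-kB motif was found in C1qc, 41 to 32 bases before the start, and in 7.25% of all windows, and it did not overlap the PU.1 core. The Maf recognition core TGCTGAC (3.81% of windows), the GAS element TTCNNNGAA (7.02%), an interferon-stimulated response element (2.98%) and the TATA box TATAAA (12.4%) were searched on both strands and had 0 matches in either window.

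C1qb, the B chain, had the highest ratios at 2 h and lower ones at each later time in all 3 treatments. With CpG ODN its ratio was 4.63 and 4.99 at 2 h, 3.82, 3.24 and 3.73 at 4 h, and 2.40, 2.42 and 2.82 at 8 h. With control ODN it was 4.69, 5.06, 5.13 and 5.27 at 2 h, 3.83 and 3.22 at 4 h, and 2.97, 2.26 and 2.56 at 8 h. In medium it was 5.65, 5.60 and 5.35 at 2 h, 3.50, 3.04 and 3.57 at 4 h, and 2.45, 2.15 and 2.37 at 8 h. No array of a later time reached an array of an earlier time in the same treatment. The ordered group means formed 3 tiers by time, 1.21 apart between 2 h and 4 h and 0.77 apart between 4 h and 8 h. Within the 4 h and 8 h tiers, neighbouring means were at most 0.23 apart, less than the largest SD in their tier (0.43 and 0.36). At 2 h medium stood 0.49 above the control ODN, with SDs of 0.16 and 0.25.

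From 2 h to 8 h the mean C1qb ratio differed by -2.26 with CpG ODN (2.55 ± 0.24 at 8 h, SD, n = 3, against 4.81 ± 0.25 at 2 h, n = 2). The difference was -2.44 with control ODN (2.60 ± 0.36, n = 3, against 5.04 ± 0.25, n = 4) and -3.21 in medium (2.32 ± 0.15 against 5.53 ± 0.16, n = 3 each), folds of 4.80, 5.43 and 9.26. At 4 h, 53.6% of this difference was present with CpG ODN, 62.1% with control ODN and 67.4% in medium. With quantile normalization the 4 h minus 2 h differences were -1.54, -1.12 and -1.88 in place of -1.21, -1.52 and -2.16. The 8 h minus 4 h difference with control ODN was then -1.32 in place of -0.92, so the order of these shares depends on the scaling. C1qb was measured on 26 arrays, with 3 values missing at 2 h and 4 at 4 h.

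C1qc, the C chain, followed the same order in time. With CpG ODN its ratio was 2.89, 2.62, 3.38 and 3.28 at 2 h, 1.26, 2.75 and 1.89 at 4 h, and 1.04, 0.55 and 1.39 at 8 h. With control ODN it was 3.43, 3.50, 3.40 and 3.67 at 2 h, 1.99, 1.80, 2.03 and 2.15 at 4 h, and 1.46, 1.10 and 2.25 at 8 h. In medium it was 3.72, 3.37, 3.40 and 3.28 at 2 h, 2.59, 2.03, 2.63 and 1.96 at 4 h, and 1.41, 1.72 and 1.79 at 8 h. The ordered C1qc means had a gap of 0.74 between 2 h and 4 h and of 0.61 below all others for CpG ODN at 8 h, while the 4 h and 8 h means of the remaining groups ran on in steps of 0.03 to 0.33. All 8 h arrays lay below all 2 h arrays of the same treatment, while some 4 h arrays overlapped those of 8 h with each ODN, and 1 CpG ODN array of 4 h reached into the range of 2 h.

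The mean C1qc ratio differed between 8 h and 2 h by -2.05 with CpG ODN (0.99 ± 0.42, SD, n = 3, against 3.04 ± 0.35, n = 4). It differed by -1.90 with control ODN (1.60 ± 0.59 against 3.50 ± 0.12) and by -1.81 in medium (1.64 ± 0.20 against 3.44 ± 0.19), folds of 4.13, 3.73 and 3.49. At 4 h, 52.6% of the difference was present with CpG ODN, 79.5% with control ODN and 63.2% in medium. The CpG ODN share rests partly on replicate 3 of 4 h, the array at 2.75, without which the 4 h minus 2 h difference was -1.47 instead of -1.08.

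Among all genes tested, the 8 h arrays lay wholly below the 2 h arrays for 17.0% with CpG ODN, 8.99% with control ODN and 9.26% in medium. C1qb and C1qc were chosen for this loss, so nothing is read from their place among those genes. In these mixed cells, fewer cells of a type and less RNA per cell cannot be told apart.

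C1qa, the A chain, was the least steady of the 4 genes. With CpG ODN its ratio was 2.04, 2.86, 2.93 and 1.82 at 2 h, 0.82 and 0.65 at 4 h, and 0.27 and 0.67 at 8 h. With control ODN it was 3.01, 2.35, 0.37 and 3.37 at 2 h, 1.62, 0.59 and 0.64 at 4 h, and 1.12 and 1.40 at 8 h. In medium it was 0.03, 3.23 and 3.63 at 2 h, 0.65, 1.86, 1.19 and 0.60 at 4 h, and 1.45, 1.13 and 1.44 at 8 h. The 8 h arrays lay below the 2 h arrays with CpG ODN, and the groups overlapped with control ODN and in medium. The overlap came from control ODN replicate 3 of 2 h (0.37) and medium replicate 1 of 2 h (0.03). On these same arrays C1qb stood at 5.13 and 5.65, and C1qc at 3.40 and 3.72.

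Between 8 h and 2 h the C1qa mean differed by -1.94 with CpG ODN, -1.01 with control ODN and -0.96 in medium. Without the low array of each control the difference was -1.65 with control ODN and -2.09 in medium, but without control ODN replicate 4 of 2 h it was -0.65, and without medium replicate 3 or 4 of 2 h it was -0.49 and -0.29. The pooled SD of C1qa within groups was 0.94, larger than that of 99.0% of genes, against 0.27 for C1qb, 0.37 for C1qc, 0.38 for Cfb and a median of 0.35 over all genes. C1qa was measured on 27 arrays. The ordered C1qa group means showed a single gap above 0.26, of 0.93, between the 2 h groups and all others.

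**Figure D1:**
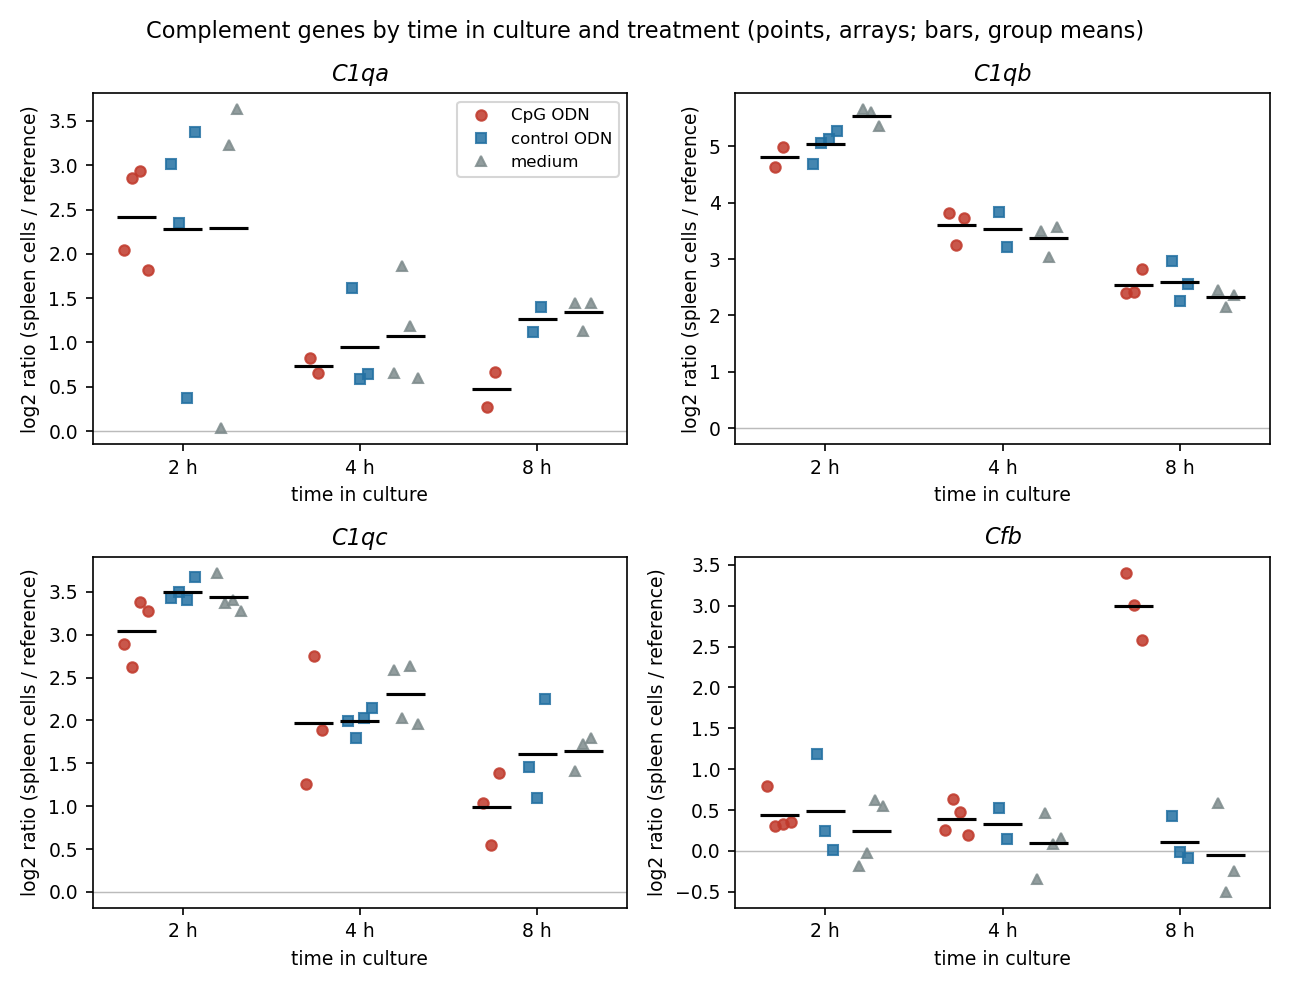
Log2 ratio over the reference RNA (y axis) of C1qa, C1qb, C1qc and Cfb by time in culture (x axis), with CpG ODN, control ODN and medium from left to right at each time; points are arrays and bars are group means. C1qb and C1qc step down from 2 h to 8 h in all treatments, C1qa scatters at 2 h, and Cfb lies above 2.5 on the 3 CpG ODN arrays of 8 h and at most at 1.19 elsewhere.

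Cfb lay near the reference in all cultures except those with CpG ODN at 8 h. With CpG ODN its ratio was 0.80, 0.30, 0.33 and 0.35 at 2 h, 0.26, 0.64, 0.48 and 0.19 at 4 h, and 3.40, 3.01 and 2.58 at 8 h. With control ODN it was 1.19, 0.25 and 0.01 at 2 h, 0.52 and 0.15 at 4 h, and 0.43, -0.01 and -0.08 at 8 h. In medium it was -0.18, -0.02, 0.62 and 0.55 at 2 h, -0.34, 0.47, 0.09 and 0.16 at 4 h, and 0.59, -0.50 and -0.25 at 8 h. The 3 CpG ODN arrays of 8 h lay above all other arrays, and the treatments overlapped at 2 h and at 4 h.

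At 8 h the mean Cfb ratio was 3.00 ± 0.41 with CpG ODN (SD, n = 3), 0.11 ± 0.28 with control ODN and -0.05 ± 0.57 in medium. The difference was 2.88 against control ODN, a fold of 7.38, and 3.05 against medium, a fold of 8.28, and both comparisons share the CpG ODN arrays. Leaving out 1 array at a time gave 2.68 to 3.09 against control ODN and 2.83 to 3.37 against medium. CpG ODN minus control ODN was -0.04 at 2 h and 0.05 at 4 h, and CpG ODN minus medium was 0.20 and 0.30. In order of level, the 8 h CpG ODN mean stood 2.52 above the next group, and no other gap between neighbouring groups exceeded 0.15. Among all genes tested at 8 h, the CpG ODN arrays lay wholly above the control ODN arrays for 10.8% and above the medium arrays for 10.4%. Cfb was chosen for this difference.

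At 8 h the CpG ODN arrays of C1qb overlapped those of both controls, and those of C1qa lay below them. C1qb differed by -0.05 from control ODN and by 0.23 from medium. C1qc differed by -0.61 and -0.65, with arrays that overlapped those of the control ODN but lay below those of medium. Leaving out 1 array moved the C1qc difference to between -0.86 (control ODN replicate 2) and -0.29 (control ODN replicate 3) against control ODN, and to between -0.84 (CpG ODN replicate 3) and -0.42 (CpG ODN replicate 2) against medium. The C1qb difference from control ODN ran from -0.22 to 0.14. C1qa differed by -0.79 and -0.87, with 2 CpG ODN arrays below 2 control ODN and 3 medium arrays. Among all genes tested, the CpG ODN arrays lay wholly below those of the control ODN for 19.3% and below those of medium for 17.7%. At 2 h, C1qc was lower with CpG ODN than with control ODN on all arrays, by a difference of -0.46 (3.04 ± 0.35 against 3.50 ± 0.12, SD, n = 4 each), a separation seen in 2.07% of genes tested. With quantile normalization this difference was -0.21, and against medium it was -0.40, with overlapping arrays. C1qb at 2 h differed by -0.72 from medium, with the 2 CpG ODN arrays below the 3 medium arrays (2.77% of genes tested), but by -0.03 with quantile normalization.

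The control ODN and medium cultures were compared by a test, which asks whether an ODN other than CpG ODN moves these genes. None of the 4 genes was called at 2, 4 or 8 h, at an adjusted p below 0.05 in limma, which tested 9239, 9637 and 9526 genes. Of the 12 comparisons, 1 had an unadjusted p below 0.05 in limma, that of C1qb at 2 h. C1qb stood there at 5.04 ± 0.25 with control ODN (SD, n = 4) and at 5.53 ± 0.16 in medium (n = 3). The difference was -0.49 ± 0.22 (SE, limma adjusted p = 1). The 4 control ODN arrays lay below the 3 medium arrays, a separation seen in 1.71% of genes tested. The other 11 differences ran from -0.31 ± 0.26 for C1qc at 4 h to 0.28 ± 0.24 for C1qb at 8 h, with standard errors of 0.24 to 0.76. No gene of the array was called in this comparison (0% at each time), and 229, 176 and 379 genes at 2, 4 and 8 h had an unadjusted p below 0.05. C1qa, with standard errors of 0.64 to 0.76, was the least closely measured of the 4.

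The chains were set against each other array by array. Over 25 arrays with both values, C1qb and C1qc correlated at 0.90, and at 0.46 once the group means were taken out. C1qa correlated with C1qb at 0.43 over 20 arrays and with C1qc at 0.53 over 26. With the group means taken out, these values were -0.25 and -0.17. Each pair of values shares its array, time and treatment, so the correlations are descriptions.

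**Figure D2:**
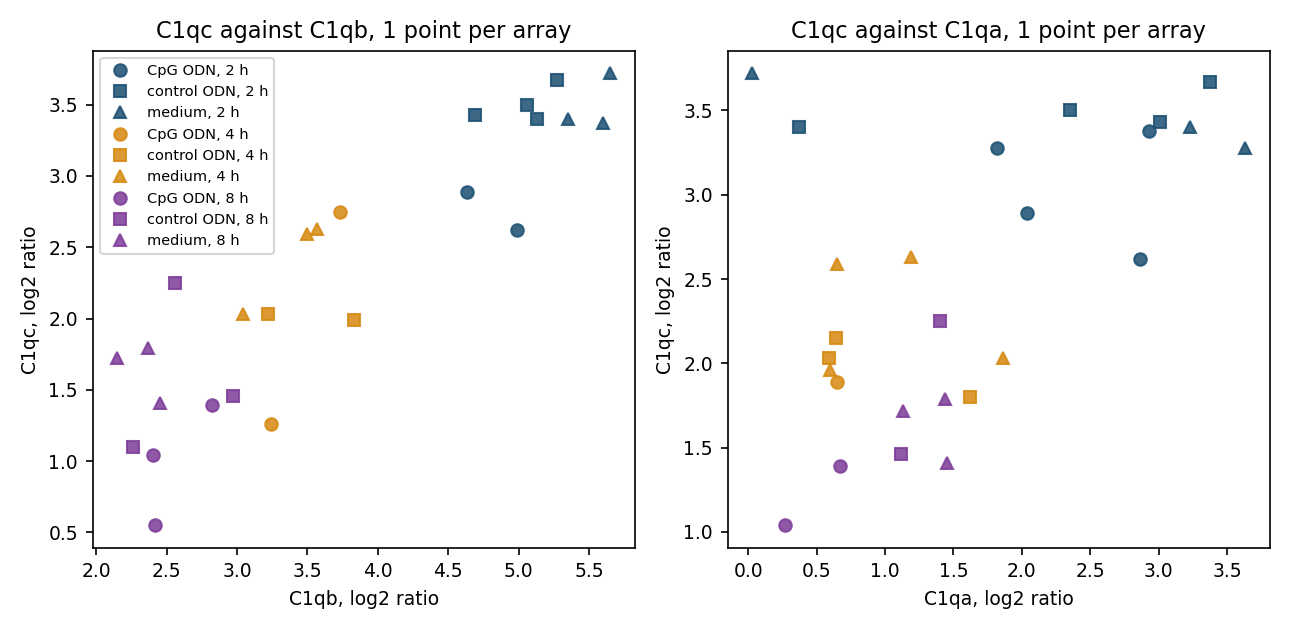
C1qc against C1qb (left) and against C1qa (right), log2 ratios over the reference RNA, 1 point per array, with colour for time and symbol for treatment. C1qb and C1qc lie along 1 band ordered by time (r = 0.90), while the 2 h arrays with C1qa at 0.03 and 0.37 stand apart at C1qc ratios of 3.72 and 3.40.

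Of 52 other complement genes listed, 30 had values and were followed in the same fit. With time in culture, genes of 3 different routes fell in all treatments: Fcna, encoding the lectin-pathway recognition molecule ficolin A, Cfp, encoding properdin, which stabilises the alternative-pathway convertase, and C6, a component of the membrane attack complex. With CpG ODN, 2 of 30 rose and 8 fell between 2 h and 8 h (10 calls, against 16.6% of all genes called, 8.45% up and 8.13% down). With control ODN 3 of 29 rose and 3 fell (10.1% of all genes, 7.61% up and 2.48% down). In medium 3 of 29 rose and 6 fell (14.6%, with 9.26% up and 5.30% down). The median difference of the listed genes was -0.10 with CpG ODN, 0.15 with control ODN and 0.06 in medium, against -0.05, -0.01 and 0.03 over all genes.

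Fcna stood at 0.98, 1.16 and 1.35 with CpG ODN at 8 h, against 3.69, 3.44, 3.62 and 3.86 at 2 h. With control ODN it stood at 1.73, 1.35 and 1.76 at 8 h, against 4.10, 3.46, 3.93 and 3.81 at 2 h. In medium it stood at 1.49, 1.89 and 2.17, against 3.92, 4.18, 3.89 and 3.85. The groups did not overlap, and Fcna fell in all 3 treatments, with differences of -2.49 ± 0.23 (SE, log2), -2.21 ± 0.23 and -2.11 ± 0.23 and limma adjusted p of 2.02e-09, 1.52e-07 and 5.34e-07.

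Cfp fell too, with differences of -1.70 ± 0.18 with CpG ODN, -1.84 ± 0.18 with control ODN and -2.05 ± 0.18 in medium and means of 0.37, 0.47 and 0.45 at 8 h. C6 differed by -1.65 ± 0.26, -1.64 ± 0.29 and -1.72 ± 0.26, with 8 h means of 0.31, 0.34 and 0.36 (largest limma adjusted p of the pair 3.27e-04). These 9 calls of Fcna, Cfp and C6 held in every alternative in which they were tested. C6 with control ODN had no value on replicate 3 of 8 h. Its call could therefore not be tested without replicate 1 or 2 of 8 h. At 4 h, 47.5% to 78.9% of the fall was present for Fcna, 67% to 72% for Cfp and 57.2% to 75.4% for C6.

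C3ar1, the receptor for the fragment C3a, went the other way. It rose by 0.91 ± 0.23 with CpG ODN, 1.99 ± 0.23 with control ODN and 2.04 ± 0.23 in medium between 2 h and 8 h (largest limma adjusted p = 0.00622). The rise with CpG ODN lost its call without CpG ODN replicate 3 of 8 h (adjusted p = 0.0528). C4bp, encoding the C4b-binding inhibitor, rose by 1.33 ± 0.29 with control ODN and 1.80 ± 0.29 in medium, and with CpG ODN the difference was 0.61. The C1 inhibitor gene Serping1 rose in medium (1.00 ± 0.30) and the C3b and C4b cofactor gene Cd46 with control ODN (0.81 ± 0.23).

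Several membrane regulators and receptors fell in CpG ODN cultures between 2 h and 8 h. Cd55, the decay-accelerating factor, fell (-1.70 ± 0.31), and also in medium (-1.27 ± 0.31), where array weights gave -0.68 and no call (adjusted p = 0.0871). Cd59a, an inhibitor of the membrane attack complex, fell by 1.63 ± 0.32, and Clu, encoding the fluid-phase inhibitor clusterin, also fell (-0.88 ± 0.26). Itgb2, the beta chain of complement receptors 3 and 4, fell (-1.11 ± 0.18), and in medium as well (-0.77 ± 0.18). Cd93, encoding a surface protein first described as a C1q receptor, fell by 1.66 ± 0.31. C1qbp, encoding a mainly mitochondrial protein that binds the globular heads of C1q, rose by 1.26 ± 0.39, and Calr, the chaperone calreticulin, fell in medium by 1.54 ± 0.36.

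Some of these time calls rest on single arrays or on the processing. That of Clu was lost without CpG ODN replicate 2 or 3 of 8 h or 4 of 2 h, and that of C1qbp without CpG ODN replicate 2 or 3 of 8 h or 1 or 2 of 2 h (highest adjusted p = 0.0714 and 0.121). That of Cd46 was lost without control ODN replicate 4 of 2 h or 3 of 8 h (0.132), that of Serping1 without medium replicate 3 of 8 h (0.13), and that of Calr without medium replicate 2 of 8 h, where the difference was -0.88. Quantile normalization lost those of Clu (-0.51, limma adjusted p = 0.119), Cd46 (0.057) and Serping1 (0.0571). With the compared groups alone in the fit, those of Cd46 (0.0898) and, in medium, Calr (0.158), Itgb2 (0.0643) and Cd55 (0.0635) were lost. That of C1qbp was lost without the 4 arrays of low mAdb number (0.0813). The proteases of C1 were not called in any treatment, with -0.64 ± 0.39, -0.14 ± 0.39 and -0.91 ± 0.39 for C1s1 with CpG ODN, with control ODN and in medium. The membrane attack components C8b (0.44, 0.28 and 0.63) and C8g (0.27, 0.43 and 0.73) were not called either.

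**Figure D3:**
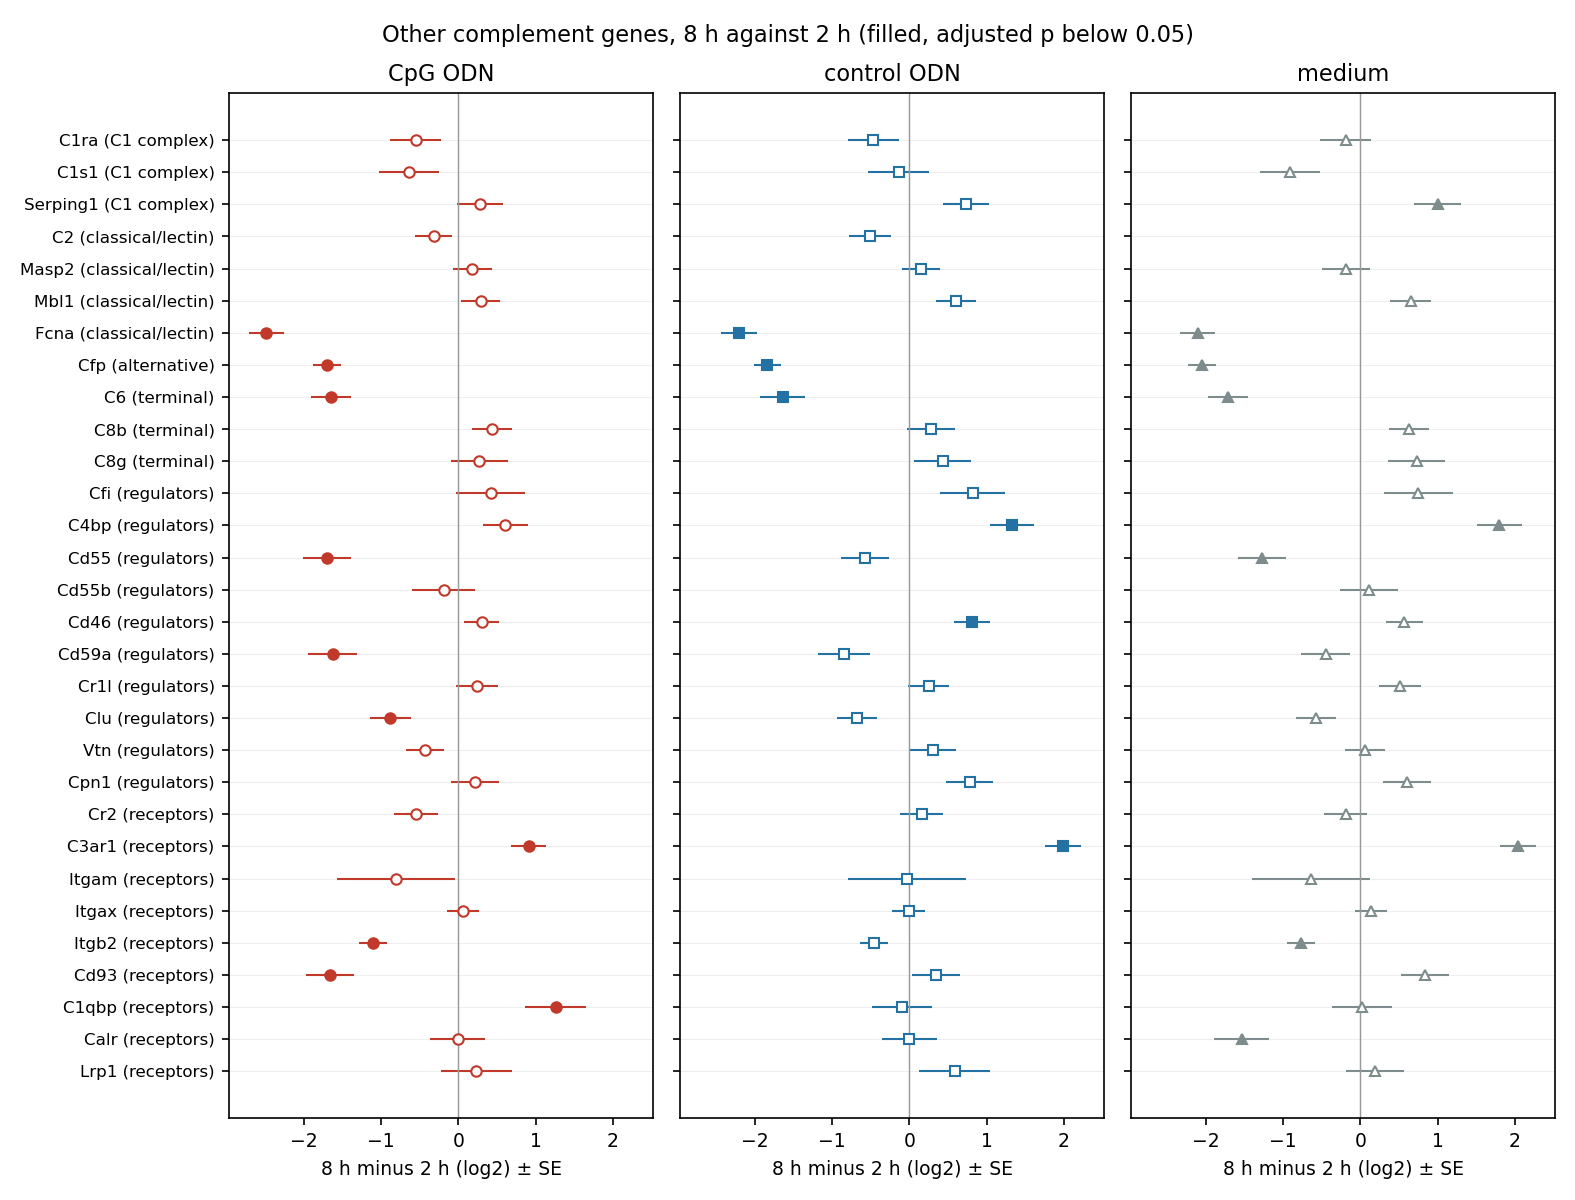
Difference between 8 h and 2 h (x axis, log2, ± SE of the limma fit) of 30 other complement genes (rows, with their role) with CpG ODN, with control ODN and in medium; filled symbols have an adjusted p below 0.05. Fcna, Cfp and C6 lie below -1.6 in all 3 panels and C3ar1 above 0.9.

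With CpG ODN at 8 h, complement receptors and a membrane regulator were lower and C1qbp was higher than with control ODN. Of the 30 listed genes, 1 was higher and 5 were lower (10.0% of all genes called, 4.55% up and 5.45% down, or 432 and 517 genes, against 425 and 216 with quantile normalization), with a median difference of -0.21 against -0.12 over all genes. At 2 h and at 4 h 0 of 29 and 0 of 30 were called by limma (0.0430% and 0.384% of all genes), and 1 and 0 had an unadjusted p below 0.05 (2.29% and 3.17%).

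Cd93 stood at -0.07, 0.42 and 0.20 with CpG ODN at 8 h and at 1.83, 2.45 and 1.48 with control ODN. It was lower by 1.74 ± 0.33 (SE, limma adjusted p = 5.21e-04) and the difference at 2 h was 0.27 ± 0.29. The change of this difference between the times was -2.01 ± 0.44 (adjusted p = 0.00478, 3.26% of all genes called). C1qbp stood at 0.72, -0.01 and 0.77 with CpG ODN and at -1.13, -1.24 and -1.18 with control ODN, and was higher by 1.68 ± 0.42 (adjusted p = 0.00868). Neither gene's arrays overlapped between the treatments.

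Cd55 was lower by 1.66 ± 0.33 (adjusted p = 9.39e-04), at 3.01 ± 0.40 with CpG ODN, against 4.67 ± 0.68 with control ODN (SD, n = 3 each). Itgb2 was lower by 0.87 ± 0.19 (adjusted p = 0.00305), and lower too were C3ar1 (-1.06 ± 0.25, adjusted p = 0.00486) and Cr2, the B cell receptor for C3d (-1.14 ± 0.29, adjusted p = 0.0108). C3ar1 lost its call without CpG ODN replicate 2 (adjusted p = 0.0665), and Cr2 without it or without control ODN replicate 1 (0.0939 and 0.076). When the fit held the compared groups alone, 1 gene was called higher and 2 lower.

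Of the genes called in another comparison, C4bp stood at -0.80 ± 0.31 (limma adjusted p = 0.114) and Serping1 at -0.47 ± 0.32 here. Of the genes called in no comparison, those with the smallest p in each role stood at -0.32 ± 0.42 for C1s1, 0.08 ± 0.36 for C1ra, -0.31 ± 0.26 for Mbl1 (mannose-binding lectin A), -0.18 ± 0.40 for C8g and -0.08 ± 0.31 for C8b. Among regulators and receptors such genes stood at -0.60 ± 0.33 for Cpn1 (carboxypeptidase N), -0.25 ± 0.29 for Cr1l, -0.33 ± 0.23 for Itgax and 0.40 ± 0.46 for Lrp1. Cfp and C6, which fell with time, differed by -0.10 ± 0.19 and -0.03 ± 0.31 between CpG ODN and control ODN, and Fcna by -0.45 ± 0.24, none of them called.

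Against medium at 8 h, C1qbp was higher by 1.46 ± 0.42, and Cd93 (-1.98 ± 0.33), Cd55 (-1.32 ± 0.33), C4bp (-1.18 ± 0.31), Cr2 (-1.17 ± 0.29) and C3ar1 (-1.03 ± 0.25) were lower, 6 of 30 (11.8% of all genes, 5.66% up and 6.11% down). C3ar1 rose with time with CpG ODN as well, by less than in medium. These differences from medium share the CpG ODN arrays with the comparison above. Without CpG ODN replicate 2 only Cd93 was called, and C1qbp was also lost without CpG ODN replicate 3 or medium replicate 1 or 3, C4bp without medium replicate 2 or 3, and Cd55 without medium replicate 3. Between control ODN and medium 0 of 28, 30 and 30 genes were called by limma at 2, 4 and 8 h. Of these, 1, 0 and 1 had an unadjusted p below 0.05, against 2.48%, 1.83% and 3.98% of all genes.

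**Figure D4:**
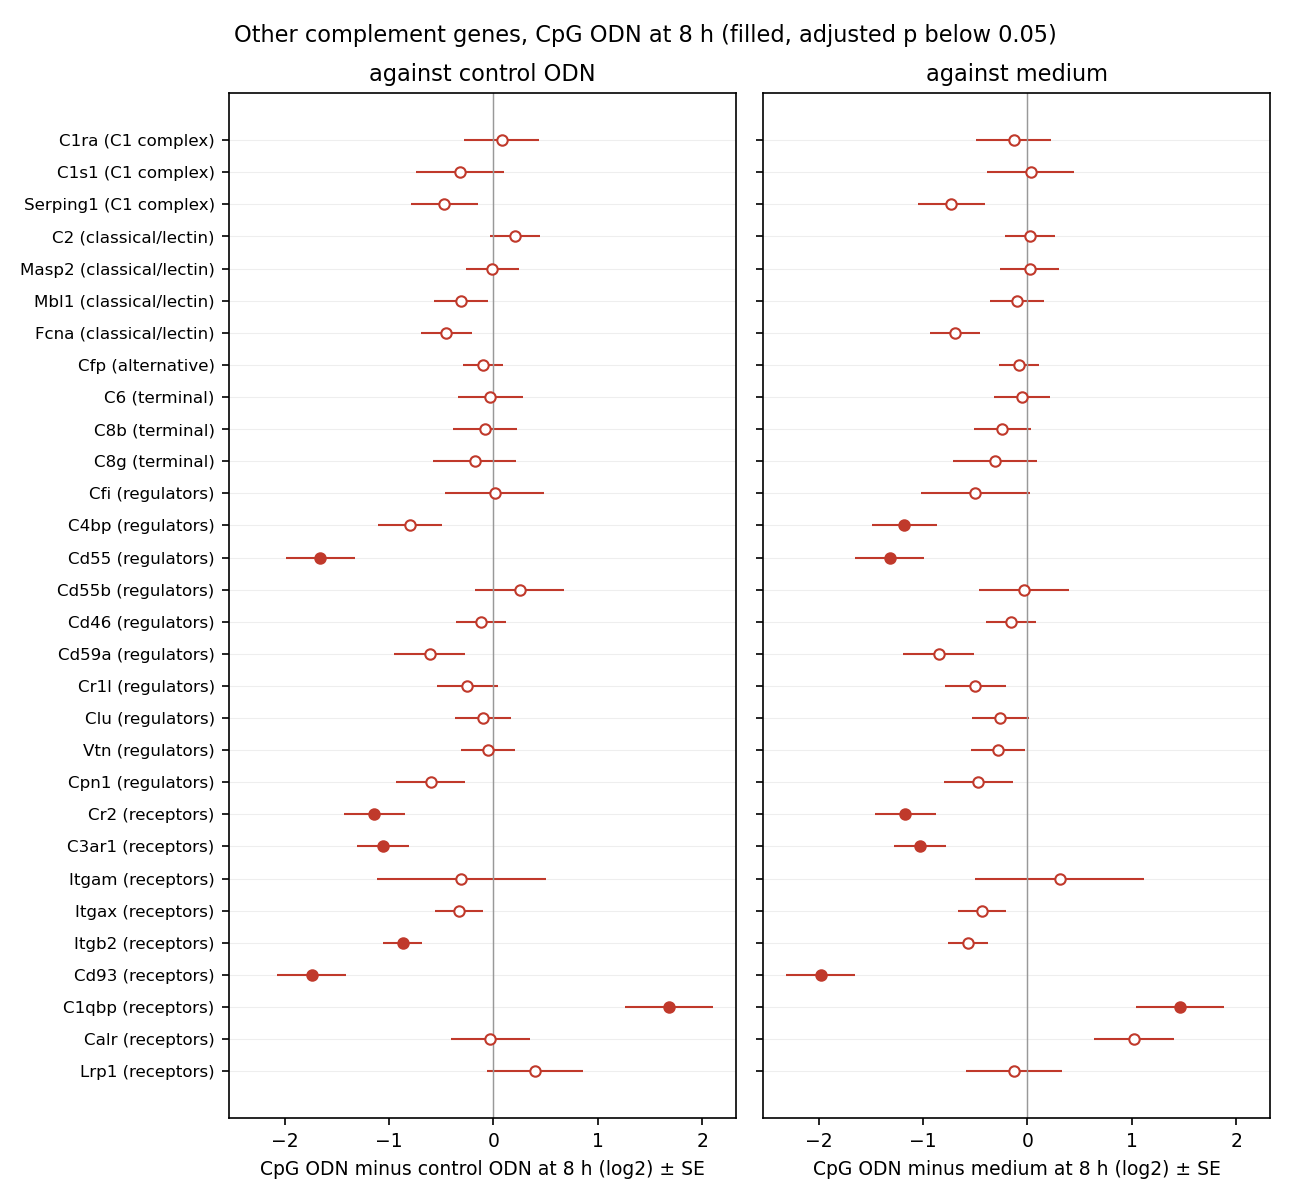
Difference of CpG ODN from control ODN (left) and from medium (right) at 8 h (x axis, log2, ± SE of the limma fit) for 30 other complement genes (rows, with their role); filled symbols have an adjusted p below 0.05. Cd93 and Cd55 are the lowest called genes and C1qbp the called gene above 0 in both panels.

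Markers of macrophages and monocytes, cells known to make C1q, and of other cell types were followed over the same time. Between 2 h and 8 h, 1 of 20 macrophage markers rose and 7 fell with CpG ODN (16.6% of all genes called), 2 rose and 4 fell of 20 with control ODN (10.1%), and 1 rose and 4 fell of 20 in medium (14.6%). Their medians were -0.48, -0.22 and -0.36, against -0.05, -0.01 and 0.03 over all genes. Vcam1, an adhesion molecule of red pulp macrophages, fell in the 3 treatments (-3.65 ± 0.23, -2.51 ± 0.23 and -2.59 ± 0.23), as did the receptor kinase gene Axl (-2.19 ± 0.26, -2.01 ± 0.26 and -1.84 ± 0.26) and Aif1 (-1.34 ± 0.21, -1.41 ± 0.18 and -1.39 ± 0.18).

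Cd68, Ctsb, Cd14 and Spic fell with CpG ODN (-1.32, -1.16, -1.81 and -0.81), though the Spic call was lost without any 1 of its 7 arrays (highest adjusted p = 0.16) and the Ctsb call without CpG ODN replicate 3 of 8 h. Ly6c1 rose by 0.93 ± 0.20 with CpG ODN but fell by 1.00 ± 0.20 with control ODN and also fell in medium (-0.74 ± 0.20). The Fc receptor gene Fcgr3 rose in both controls (1.37 ± 0.35 and 1.14 ± 0.35), and Cd163 with control ODN (1.17 ± 0.34). The calls of Fcgr3 and Cd163 with control ODN were lost without replicate 3 of 8 h, that of Cd163 also without replicate 1 of 2 h (adjusted p = 0.0716), that of Ly6c1 in medium without replicate 1 of 8 h, and that of Fcgr3 in medium without any 1 of 4 arrays (highest adjusted p = 0.239). Quantile normalization lost the calls of Cd163 with control ODN and Fcgr3 in medium (limma adjusted p = 0.0801 and 0.0618). With the compared groups alone, those of Fcgr3 and Ly6c1 in medium were lost (0.19 and 0.12), and array weights lost that of Ly6c1 in medium (0.0788). Without the 4 arrays of low mAdb number, those of Spic and Cd163 were lost (0.07 and 0.106). The fall count with CpG ODN was 4 without replicate 3 of 8 h.

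The mean of the 15 markers measured on all arrays went from 0.96 ± 0.08 at 2 h through 0.56 ± 0.05 at 4 h to 0.25 ± 0.23 at 8 h with CpG ODN (SD over arrays). It was 0.92 ± 0.16, 0.55 ± 0.09 and 0.71 ± 0.11 with control ODN, and 0.90 ± 0.20, 0.73 ± 0.18 and 0.53 ± 0.11 in medium. Over arrays it correlated at 0.72 with C1qb and 0.74 with C1qc, and with the group means taken out at 0.14 and 0.03. For C1qa the correlation was 0.43 over arrays and -0.21 with the group means taken out. Neutrophil markers had lower medians than macrophage markers, at -2.01, -0.89 and -1.03 for 8 h minus 2 h, with all 6 below 0 in each treatment. Of the 6, limma called 2, 1 and 0. Before adjustment 5, 1 and 3 passed 0.05, against 29.4%, 23.1% and 27.2% of all genes. With CpG ODN all 6 had 8 h arrays wholly below the 2 h arrays, as did 17.0% of all genes. T cell markers had medians of -0.02, 0.41 and 0.00, B cell markers of -0.21, 0.19 and 0.02, NK cell markers of 0.28, -0.45 and -0.24, and 4 dendritic cell markers of -0.61, -0.29 and -0.30. The part of these markers in the C1q differences was not tested.

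At 8 h, 2 of 19 macrophage markers were higher and 3 lower with CpG ODN than with control ODN (10.0% of all genes called), with a median of -0.22. Of 10 T cell markers 4 were lower, with a median of -0.85, and the median of the 6 neutrophil markers was -0.68. Among the neutrophil markers limma called 0, and 1 passed 0.05 before adjustment, against 22.2% of all genes. Over all genes the median was -0.12. Their part in the Cfb and complement differences was not tested. Ly6c1 was higher by 1.67 ± 0.22 and Fcgr1 by 0.99 ± 0.30, while Cd14 (-1.53 ± 0.30), Fcgr3 (-1.32 ± 0.38) and Vcam1 (-1.01 ± 0.24) were lower. Fcgr1 lost its call without CpG ODN replicate 1 or control ODN replicate 2 or 3, and Fcgr3 without CpG ODN replicate 2 or control ODN replicate 3. Without that control ODN array the counts were 1 higher and 2 lower. Quantile normalization lost the calls of Vcam1 and Fcgr1 (limma adjusted p = 0.056 and 0.0636). With the compared groups alone in the fit, those of Cd14 and Fcgr1 were lost (0.0559 and 0.164).

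The genes most like the C1q mean over the 19 arrays with all 3 chains, among 5339 measured on those arrays, were Hfe (Pearson r = 0.93), Fcna (0.93), Cfp (0.91), Vcam1 (0.90), Tgfb3 (0.90) and Jund (0.88). Hfe encodes a regulator of iron uptake that is mutated in haemochromatosis. Its ratio was -2.12 at 8 h against 0.39 at 2 h with CpG ODN, -1.46 against 0.42 with control ODN and -1.39 against 0.39 in medium. The genes most like Cfb over 30 arrays, among 5037, were Ifih1 (0.92), Lgals9 (0.92), Ifit3 (0.92), Tmem176b (0.91), Grwd1 (0.91) and Mov10 (0.90). Ifih1, which encodes the RNA sensor MDA5, stood at 3.35 with CpG ODN and at 0.20 with control ODN at 8 h. Spearman's rho was 0.86 to 0.90 for the first 6 genes and 0.51 to 0.69 for the second 6. These correlations share arrays, times and treatments.

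The nearest measured genes on the chromosome were followed in the same fit. The 3 nearest measured genes on each side of the C1q cluster were Kdm1a, Luzp1, Hnrnpr, Wnt4, Cdc42 and Cela3b. They lie 7, 8, 12, 11, 12 and 16 gene steps away in the RefSeq gene table, so no gene directly beside the cluster was followed. Of these measured genes, Wnt4 (-0.87 ± 0.30) and Cdc42 (-0.59 ± 0.19) fell between 2 h and 8 h in medium, and none of those tested was called over this time with CpG ODN or control ODN. The Wnt4 call was lost without medium replicate 1 or 2 of 2 h or 2 or 3 of 8 h (highest adjusted p = 0.282), and the Cdc42 call without any 1 of 5 arrays (highest adjusted p = 0.111). The Wnt4 call was also lost without the 4 arrays of low mAdb number (limma adjusted p = 0.0688) and with quantile normalization (0.0831). Both calls were lost with the compared groups alone (0.195 and 0.133).

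Near Cfb, the measured genes were Nelfe, Dxo and Stk19 on one side (1, 5 and 6 gene steps away) and C2, Slc44a4 and Neu1 on the other (2, 5 and 6). C2, the classical-pathway counterpart of factor B, stood at -0.03, 0.22 and -0.60 with CpG ODN at 8 h and at -0.48, 0.02 and -0.57 with control ODN. The difference was 0.21 ± 0.24 (limma adjusted p = 0.705), with overlapping arrays. None of these 6 was called by limma against control ODN at 8 h, and Stk19 was higher than in medium by 1.18 ± 0.26 (limma adjusted p = 0.00243), while in medium it fell between 2 h and 8 h (-1.34 ± 0.24); both calls were lost when the fit held the compared groups alone (adjusted p = 0.122 and 0.0646).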

How the data were processed

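The authors deposited 1 log ratio per probe and array, with no base stated; the range of -6.51 to 8.54 was read as log2, per the file headers and labels Cy5 spleen cells over Cy3 reference. How background and weak spots were treated, and how dyes were balanced on an array, is not given in the sources used here; no dye was swapped. Depth is known only as probes with a value, and precision is limited by how many arrays each group has. Gene symbols are those of the platform annotation. A gene with several probes took the one with fewest missing values. Each array was centred on its median, and 1 model with 9 group means was fitted to each gene (R 4.3.3, limma 3.58.1, moderated variances); p-values were adjusted by Benjamini-Hochberg over all genes tested (adjusted p below 0.05, at least 2 arrays in each compared group). No sample was imputed. The fit was checked on simulated data, with arrays drawn independently of each other. For CpG ODN against control ODN at 8 h, 54 of 100 genes changed by 1 log2 unit were called. Of those changed by 2 log2 units, 93 of 100 were called. All columns were used.

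The 4 genes, the gene lists and the tests were chosen with earlier results of these data known. Genes were named by rule: the 4 genes, other complement genes called in any comparison, in each role the 2 genes called in no comparison with the smallest p against control ODN at 8 h, the called macrophage markers, the 3 nearest measured neighbours on each side, and the 6 genes most correlated with the C1q mean and with Cfb. Alternatives were array centring, quantile normalization, probe means, the repeat number as a block, array weights, the arrays and genes used, and leaving out each array.

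Same-numbered arrays of different treatments at a time deviated together (r over 0.1) in 21 of 33 pairs, from -0.412 to 0.736. All pairs did so for control ODN and medium at 8 h (0.653, 0.484 and 0.645), where the repeat number was taken to pair the arrays. In the other comparisons some pairs did and others did not. Over all 33 pairs, the same number gave the highest correlation in 18. The main fit used no pairing.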

Additional observations from a re-analysis of the deposited data

Results flagged for a closer look

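The CpG ODN minus control ODN difference changed between 2 h and 8 h, by a limma test of that change, for 1 of 29 complement genes and 3 of 19 macrophage markers, against 3.26% of all genes (298 of 9141). It changed by -2.01 ± 0.44 for Cd93 (adjusted p = 0.00478), by -1.97 ± 0.40 for Cd14 (0.00243), by 1.92 ± 0.29 for Ly6c1 and by -1.14 ± 0.32 for Vcam1 (0.0425). The first 3 calls held in the 21 alternatives run for each, and that of Vcam1 was lost in 10 of 21 (highest adjusted p = 0.145).

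In 7 of 99 groups of 4 arrays, over the 4 genes and the 15 other complement genes called, 1 array stood far from the others by the gap between them; chance gives about 1 in 20. Cfb stood at 0.80 on CpG ODN replicate 1 of 2 h, against 0.30 to 0.35. On control ODN replicate 3 of 4 h, Serping1 stood at -0.95 (0.74 to 0.81 on the others), Fcna at 1.43 (2.23 to 2.37) and Cfp at 0.80 (1.09 to 1.14). C4bp stood at 2.17 on CpG ODN replicate 3 of 4 h (1.46 to 1.51), Cd46 at 0.31 on medium replicate 4 of 4 h (0.52 to 0.55) and C3ar1 at -0.68 on CpG ODN replicate 4 of 2 h (-0.21 to -0.11).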

How the results depend on the processing

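No called value changed sign. The 8 h minus 2 h differences of C1qb and C1qc and the Cfb difference at 8 h kept their direction in every setting run. C1qb with CpG ODN moved to -2.71 with quantile normalization, which also put its untested CpG ODN minus control ODN difference at 2 h at 0.39 in place of -0.23, and C1qa in medium ran from -2.09 to -0.29 with 1 array left out. None of the 4 genes was called between control ODN and medium in any alternative. With the repeat number as a block at 8 h, where it was taken to pair the arrays, 0 were called. Elsewhere same-numbered arrays deviated together in some pairs and not in others, so whether the number pairs them is not settled. The block changed no other call of the 4 genes. The cause of the following changes was not tested.

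Other complement genes called at 8 h against control ODN numbered 3 when the fit held the compared groups alone. Against medium they numbered 10 with the replicate block, 10 with array weights, 1 with the compared groups alone, and 1 to 7 with 1 array left out. With array weights 1 was called against medium at 4 h and 14 between 8 h and 2 h in medium. Macrophage markers called against control ODN at 8 h numbered 3 with quantile normalization, 9 with the replicate block, 3 with the compared groups alone and 3 to 5 with 1 array left out. Between 8 h and 2 h they numbered 5 to 8 with CpG ODN with 1 array left out, and in medium 8 with array weights and 3 with the compared groups alone. Quantile normalization called 425 genes of the whole array higher and 216 lower with CpG ODN than with control ODN at 8 h, in place of 432 and 517. Over all genes, that comparison had 1489 calls with the replicate block and 564 with the compared groups alone, and CpG ODN against medium had 1698 and 315, in place of 949 and 1115. Depth per spot is unknown.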
